A study of Mus musculus with 20 samples.

Results

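The 4 teneurins (Tenm1, Tenm2, Tenm3 and Tenm4) and 4 genes named for multiple EGF-like domains (Megf6, Megf9, Megf10 and Megf11) were followed through 20 RNA-seq libraries of mouse pituitary and groin fat (inguinal white adipose tissue, iWAT, a subcutaneous depot). They are 8 of the 24062 genes in the deposited count tables and were picked by gene symbol. The choice was made from these data, because Tenm1 and Megf10 were lower in the pituitary libraries labelled Klf14 knockout (KO), also among the mice of 21 weeks. Their pituitary difference between genotypes is therefore described below with no p-value for any member, whereas the comparison within iWAT did not enter the choice and is tested. The comparisons between tissues are tested as well, with no p-value printed for Megf10. They reuse the pituitary libraries, so the values of Tenm1 and Megf10 in them are not independent of the choice.

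Teneurins are large single-pass membrane proteins that act as dimers and carry EGF-like repeats and a bulky C-terminal extracellular part. They bind latrophilins, which are adhesion G protein-coupled receptors, and the latrophilins also bind FLRT proteins, so that the complexes bridge neighbouring cells and are best known from synapse and axon guidance studies. Megf10 is a mammalian relative of the Drosophila engulfment receptor Draper and of nematode CED-1. It takes part in the clearance of dying cells and synapses by astrocytes and is also known from muscle satellite cells. Megf11 is its closest relative and is known with it for the spacing of retinal neurons. Megf6 and Megf9 share the EGF-like domains and the name, but they are not established engulfment receptors, so the shared Megf name is not a shared function.

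All mice were male C57BL/6N on chow, and each tissue had 5 libraries labelled wild type (WT) and 5 labelled KLF14 KO, a germline deletion per the series title. The WT libraries came from 2 mice of 21 weeks (numbers 33 and 34), 2 of 19 weeks (48 and 49) and 1 of 18 weeks (56). The libraries labelled KO came from 4 mice of 21 weeks (31, 32, 35 and 66) and 1 of 19 weeks (50), so the groups differed in mean age, at 19.6 weeks for WT and 20.6 weeks for labelled KO. The labels do not state that each library in a group is from its own animal, so p-values rest on a spread between libraries that may in part be technical. Total counts were 13.6 to 17.6 M (mega-counts) per pituitary library and 14.8 to 18.7 M per iWAT library.

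The genotype label was not borne out by Klf14, the gene named as deleted, a single-exon gene at chr6:30956021-30958990 of mm10. Its level in the pituitary was 16.1 ± 1.78 CPM (counts per mega-count of the TMM-scaled library, mean ± SD, n = 5) in WT and 32.4 ± 2.98 CPM in the libraries labelled KO. The fitted level was 2.01-fold higher in labelled KO (SE 0.086 on the log2 scale, edgeR adjusted p = 7.645e-05), with every library labelled KO above every WT library. In iWAT both groups were low, at 0.915 ± 1.23 and 1.56 ± 0.810 CPM (edgeR adjusted p = 1). The extent of the deletion could not be read from the labels, so these counts do not show whether the labels are right, and the groups are called WT and labelled KO throughout.

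The tissue labels were checked against marker lists. The 10 pituitary endocrine markers (Gh, Prl, Pomc and others) summed to between 100500 and 153400 CPM in the pituitary libraries and to at most 2.15 CPM in 9 of the 10 iWAT libraries. The library labelled KO number 32 of iWAT had a sum of 123.3 CPM, which is 0.0897% of the sum in the pituitary library of the same number. The 8 adipocyte markers summed to between 11220 and 37020 CPM in iWAT and to at most 42.2 CPM in the pituitary. These are bulk tissues, in which fewer cells of a type and less RNA per cell cannot be told apart.

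Reads were counted over all exons of each member, with positions on mm10. Tenm1 is X-linked (chrX:42532393-43274784, minus strand, 33 exons, 8361 counted bases). Tenm2 spans chr11:36006656-36944241 (minus, 29 exons, 9779 bases), Tenm3 chr8:48225665-48674690 (minus, 29 exons, 10978 bases) and Tenm4 chr7:96210637-96908554 (plus, 33 exons, 10633 bases). Megf11 spans chr9:64385626-64709205 (plus, 26 exons, 6631 bases), and the Megf10 locus is given with its values below. Megf6 and Megf9 are both on chromosome 4, at chr4:154170713-154275721 (plus, 37 exons, 6876 bases) and chr4:70431927-70534928 (minus, 6 exons, 3062 bases). No member shares exon bases with another gene in the annotation that was counted. In GENCODE M21, 988 exon bases of Tenm4 overlap C230038L03Rik on the opposite strand, and since no strand option is recorded, reads from that transcript cannot be told apart from Tenm4 reads.

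RefSeq sequence on GRCm38.p6 was read for the 250 bases before the transcript start of 6 of the 8 members (not Megf10 or Megf11), in 7 windows. The stretches before Tenm1, Megf6 and Megf9 are shown because these genes stand for the 3 patterns of the tissue comparison below: far lower in iWAT, higher in iWAT, and not different past the threshold. They run 5′ to 3′ on the gene's strand. In Megf6 and Megf9, capitals mark every match to GGGCGG or CACCC on either strand (CCGCCC and GGGTG), and no base is shared by both motifs. In Tenm1 the capitals mark the last bases before the counted start, an AG dinucleotide as found at splice acceptors. Of the GENCODE M21 transcripts that span this window, 0 have an exon that starts there. The Megf6 window also ends in AG, which is not marked. The windows are chrX:43274785-43275034, chr4:154170463-154170712 and chr4:70534929-70535178.
Tenm1: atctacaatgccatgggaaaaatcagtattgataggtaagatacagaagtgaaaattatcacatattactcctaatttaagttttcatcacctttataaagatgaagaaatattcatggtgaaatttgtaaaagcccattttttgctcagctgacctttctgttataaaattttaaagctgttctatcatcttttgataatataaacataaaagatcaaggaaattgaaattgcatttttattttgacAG
Megf6: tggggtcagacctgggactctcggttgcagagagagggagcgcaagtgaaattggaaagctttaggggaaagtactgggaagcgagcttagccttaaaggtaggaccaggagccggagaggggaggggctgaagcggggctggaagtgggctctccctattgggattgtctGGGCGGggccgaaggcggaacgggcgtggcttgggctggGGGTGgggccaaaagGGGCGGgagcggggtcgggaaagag
Megf9: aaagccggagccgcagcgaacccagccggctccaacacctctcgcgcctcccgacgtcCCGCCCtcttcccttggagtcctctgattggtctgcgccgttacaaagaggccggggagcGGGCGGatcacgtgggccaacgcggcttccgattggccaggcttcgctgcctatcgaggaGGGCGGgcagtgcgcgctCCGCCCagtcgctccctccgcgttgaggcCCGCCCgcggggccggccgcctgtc

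GC content differed widely between these stretches. It was 27.2% before Tenm1, 63.2% before Megf6 and 71.6% before Megf9, against a median of 52.4% over 32851 windows of the same length. Only 0.673% of windows had a lower GC content than Tenm1, whereas 92.7% had a lower one than Megf9. Megf9 held 5 matches to GGGCGG or its complement and Megf6 held 2, and 32.7% of all windows held at least 1. CACCC or its complement, which 52.0% of all windows held, matched 1 time before Megf6, and 2 and 1 times in the 2 windows of Tenm4. The remaining windows held neither motif, which says only that these letters are absent there.

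For the teneurins the window is not the start of every transcript. In GENCODE M21, 2 of the 6 Tenm1 transcripts begin further upstream, as far as position 43429126, and span the Tenm1 window in an intron. The same holds for 2 of the 8 Tenm2 transcripts, which begin as far as position 37235964, and in both of these the counted start of Tenm2 is the start of an internal exon. For Tenm3, 1 of 8 transcripts spans the window and begins at position 48843951. For Tenm4, neither window ends at the counted start, and 6 of 12 transcripts span the second one in an intron. Upstream exons of such transcripts outside the counted gene were not counted.

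Compared per length (CPM per kb of counted exon), the teneurins were led by Tenm4 and Tenm3 in the pituitary. Tenm4, which is known for its part in myelination and bone, stood at 24.6 ± 1.13 CPM per kb in WT and Tenm3, known for matching axons to their targets in the visual system, at 20.7 ± 1.31. Megf9 at 8.69 ± 0.899, Megf11 at 7.77 ± 1.26 and Megf10 at 7.09 ± 1.24 CPM per kb followed, and the ranges of neighbours among these 3 overlapped. Tenm1 stood at 3.01 ± 0.599, Tenm2 at 2.02 ± 0.209 and Megf6 at 0.179 ± 0.0419 CPM per kb, with no overlap between neighbours. The libraries labelled KO gave the same order, with 2 changes in what overlapped. Megf11 (8.53 ± 1.02) and Megf10 (4.26 ± 0.210) were now apart, and Tenm1 (2.14 ± 0.235) overlapped Tenm2 (1.99 ± 0.301).

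The order was different in iWAT. Tenm4 again led, at 11.1 ± 5.13 CPM per kb in WT, and its range overlapped that of Megf9 at 6.87 ± 2.10. Megf11 at 3.65 ± 0.241, Tenm3 at 2.03 ± 0.355 and Megf6 at 0.758 ± 0.260 CPM per kb came next, with Megf6 overlapping Tenm2 at 0.357 ± 0.0991. Tenm1 (0.115 ± 0.0404) and Megf10 (0.0580 ± 0.0216) were lowest and overlapped. The same order held in the libraries labelled KO.

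**Figure D1:**
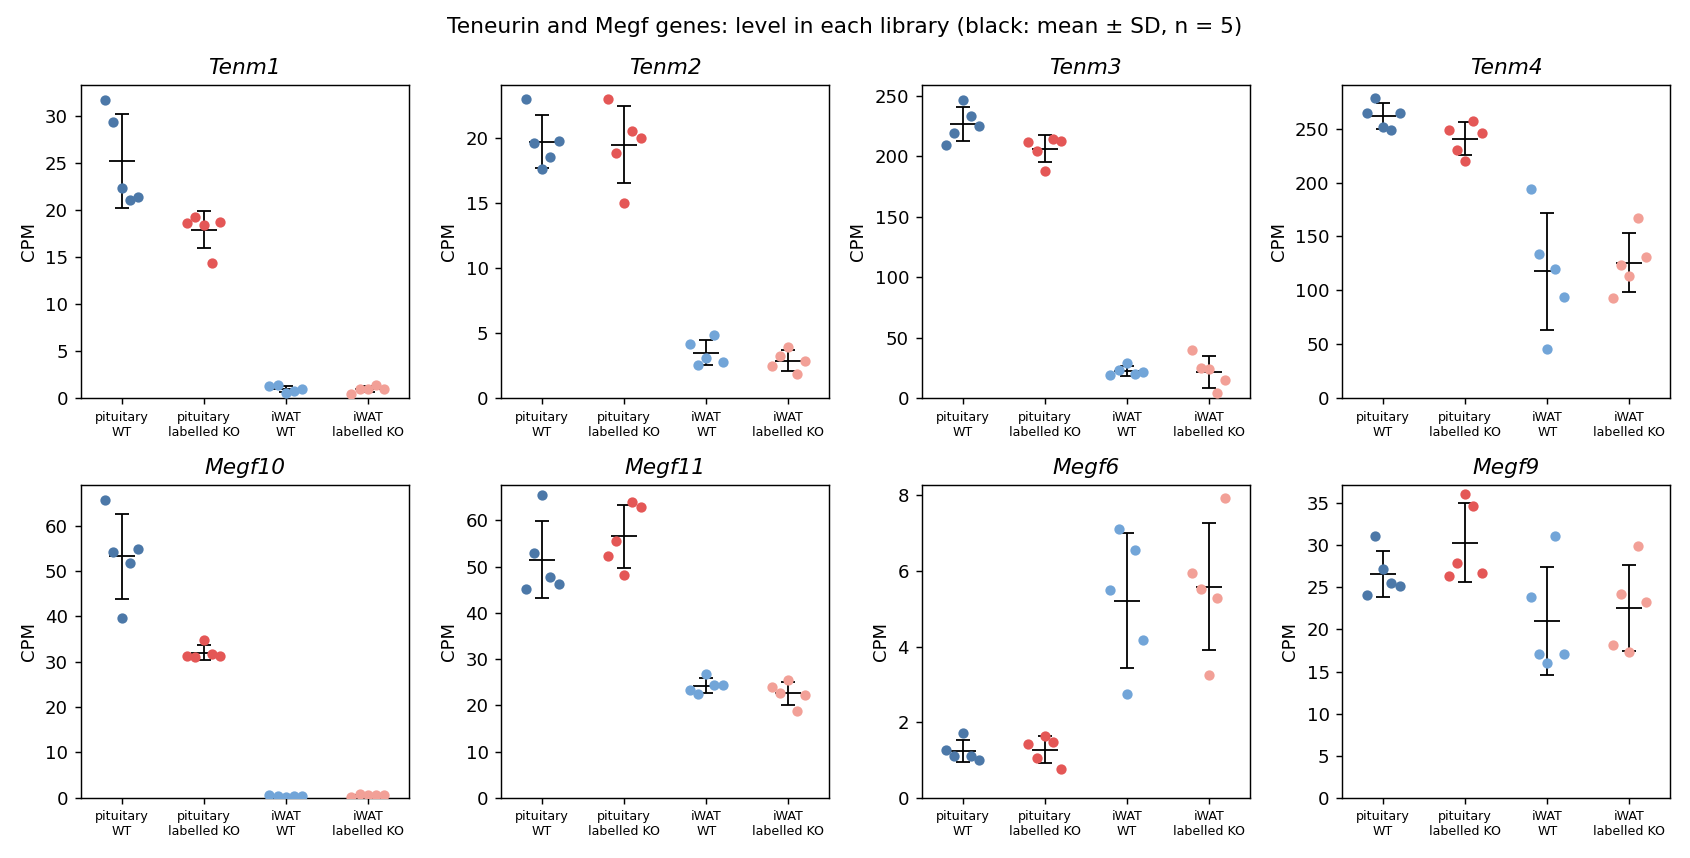
Level of each gene in CPM (linear axis from 0, a separate scale per panel) in the 20 libraries, with points for libraries and black bars for the mean ± SD of 5. Tenm1 and Megf10 are near 0 in iWAT, Megf6 is the one gene with higher values there, and the pituitary groups are apart for Tenm1 and Megf10.

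The largest pituitary difference among the 8 genes was that of Megf10 (chr18:57133090-57297467, plus strand, 25 exons, 7514 counted bases). Its level was 65.8, 54.3, 39.6, 51.9 and 54.9 CPM in WT libraries 33, 34, 48, 49 and 56. In the libraries labelled KO 31, 32, 35, 50 and 66 it was 31.3, 31.1, 34.8, 31.7 and 31.2 CPM. Every library labelled KO was below every WT library, and the libraries labelled KO lay much closer together than the WT ones. The means were 53.3 ± 9.34 CPM in WT and 32.0 ± 1.58 CPM in labelled KO, and the fitted log2 fold change was -0.74 (SE 0.10), or 1.67-fold lower. Counting error alone would give a coefficient of variation of 3.45% in WT and 4.40% in labelled KO, against observed values of 17.6% and 4.94%.

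Tenm1 was the other gene whose pituitary groups did not overlap. Its level was 31.7, 29.4, 22.4, 21.1 and 21.3 CPM in WT libraries 33, 34, 48, 49 and 56, and 18.6, 19.2, 18.4, 14.4 and 18.7 CPM in libraries labelled KO 31, 32, 35, 50 and 66. The WT libraries fell into a higher pair and a lower trio, and the highest library labelled KO was just under the lowest WT library. The means were 25.2 ± 5.00 and 17.9 ± 1.96 CPM, with a log2 fold change of -0.50 (SE 0.12), or 1.41-fold lower in labelled KO.

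Age moved with Tenm1 within WT. The WT mice of 21 weeks had 29.4 and 31.7 CPM, and the 3 WT mice of 18 and 19 weeks had 21.1 to 22.4 CPM. In labelled KO the 4 mice of 21 weeks had 18.4 to 19.2 CPM and the mouse of 19 weeks had 14.4 CPM. At both 19 and 21 weeks the libraries labelled KO were the lower ones, which follows from the lack of overlap between the whole groups. For Megf10, WT mice had 54.3 to 65.8 CPM at 21 weeks and 39.6 to 54.9 CPM at 18 and 19 weeks, whereas labelled KO gave 31.1 to 34.8 CPM and 31.7 CPM, respectively.

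**Figure D2:**
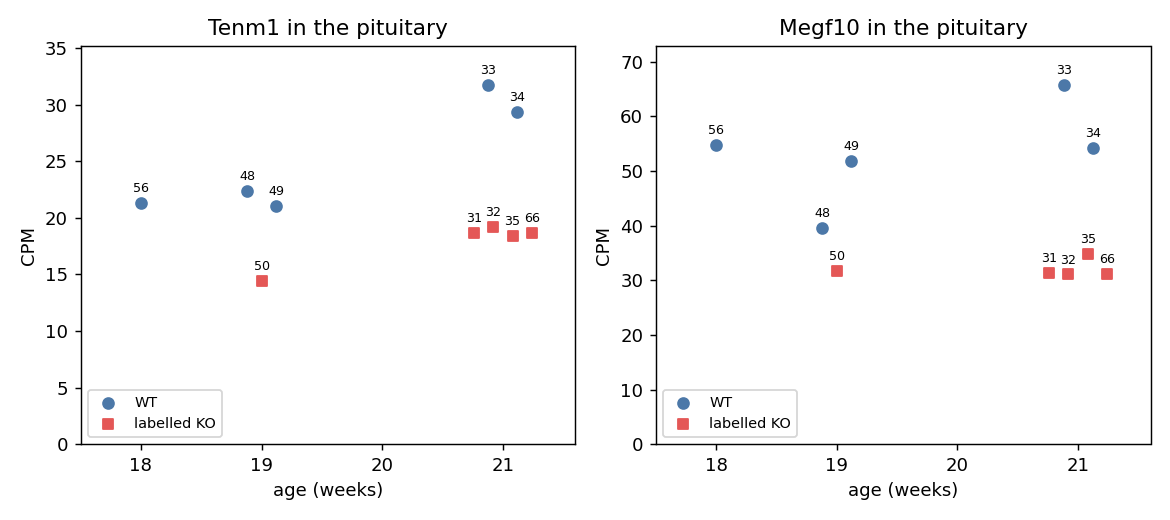
Tenm1 and Megf10 level in CPM (axis from 0) against the age of the mouse in weeks, 1 point per pituitary library with its number, spread sideways within an age. All points labelled KO lie below all WT points, and so also at 19 and at 21 weeks. WT Tenm1 is higher at 21 weeks than at 18 and 19 weeks.

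Because the groups differ in age, the fold changes were also fitted within ages. Among the mice of 21 weeks the log2 fold change was -0.71 (SE 0.079) for Tenm1 and -0.91 (SE 0.093) for Megf10, with 2 WT and 4 labelled KO libraries. Among the mice of 18 and 19 weeks it was -0.61 (SE 0.15) and -0.64 (SE 0.18), with 3 WT libraries and 1 labelled KO library. With age as a covariate over all 10 libraries it was -0.68 (SE 0.067) and -0.81 (SE 0.11). These values belong to the contrast that chose the genes, and the younger fit has a single labelled KO library, which is assumed to vary like the WT ones.

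The other members overlapped between the pituitary groups. Tenm3 had 209.1, 219.5, 247.0, 233.7 and 225.1 CPM in WT and 212.0, 204.1, 187.8, 214.6 and 212.7 CPM in labelled KO, in the library order used above. Libraries labelled KO 32 and 35 were under the WT range and the other 3 were at its low end, and the log2 fold change was -0.15 (SE 0.051). Tenm4 had 264.5, 278.9, 251.3, 249.2 and 264.7 CPM in WT and 249.0, 230.0, 219.6, 257.5 and 246.1 CPM in labelled KO, with a log2 fold change of -0.13 (SE 0.048). Here the library labelled KO number 50 lay within the WT range and the other 4 lay under it. Tenm2, the teneurin first described as a latrophilin ligand, was close in both groups, at 17.6 to 23.0 CPM in WT and 15.0 to 23.0 CPM in labelled KO (log2 fold change -0.023, SE 0.10).

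Megf11 did not share the Megf10 pattern. It had 45.1, 53.0, 65.4, 47.7 and 46.3 CPM in WT and 52.3, 55.5, 48.2, 63.9 and 62.9 CPM in labelled KO (log2 fold change 0.13, SE 0.11). WT library 48 was the highest of all for Megf11 and the lowest WT library for Megf10. Per kb, Megf10 stood at 0.946 ± 0.273 of the Megf11 level in WT (range 0.534 to 1.29) and at 0.507 ± 0.0829 in labelled KO (range 0.437 to 0.638), so that the 2 relatives were nearer to equal in WT, with ratios that overlapped between groups. Megf9 had 24.1 to 31.1 CPM in WT and 26.3 to 36.1 CPM in labelled KO (log2 fold change 0.18, SE 0.10). Megf6 was near its counting limit, at 0.995 to 1.72 CPM and 0.759 to 1.64 CPM from 12 to 29 counts (log2 fold change 0.025, SE 0.25).

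Of the 8 members, all tested, 1 (Megf10) passed the edgeR threshold (adjusted p under 0.05) in the pituitary, where 0.549% of 16389 genes did, and 0.134% did so in the lower direction. Groups did not overlap for 2 members, Tenm1 and Megf10, both lower in labelled KO, against 2.82% of all genes in either direction and 1.09% in the lower one. Since this contrast chose the members, nothing is read from these counts. The median log2 fold change of the members was -0.076, beside 0.004 over all genes tested, with 5 below and 3 above 0.

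Several cell type lists moved in single pituitary libraries. The 10 macrophage markers summed to 107.8 to 130.9 CPM in WT and 95.0 to 293.5 CPM in labelled KO, the highest being library 50, which also had the lowest Tenm1. All 10 had a fold change above 0 and 0 passed the threshold. The 10 posterior lobe markers summed to 230.8 to 351.3 CPM in WT and 197.5 to 525.5 CPM in labelled KO, the highest being library 66, with 9 of 10 above 0 and 0 past the threshold. No gene of either list was at 0 in a whole group. Without the libraries labelled KO 50 and 66 the log2 fold change was -0.43 (SE 0.14) for Tenm1 and -0.72 (SE 0.13) for Megf10, a split chosen after these sums were seen. With every library labelled KO below every WT library for both genes, a value below 0 was close to given, and nothing is read from it. The part of macrophages and posterior lobe in the levels of Tenm1 and Megf10 was not tested. Of 8 neuronal markers, which summed to 837.3 to 919.6 CPM in WT and 835.1 to 942.4 CPM in labelled KO, only the tubulin gene Tubb3 passed the threshold (log2 fold change -0.42, SE 0.070, edgeR adjusted p = 0.01145).

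The genes whose level was most like that of Tenm1 over the 10 pituitary libraries were found by Pearson correlation of log2 CPM, which is given as a description. They were Plxdc2, a plexin-domain membrane protein (r = 0.95), Reln, the secreted guidance protein reelin (r = 0.94), 5830418P13Rik (r = 0.93), the histone gene Hist1h2bc (r = 0.93) and Rab38, a small GTPase of melanosome formation (r = 0.92). Within groups, after removal of the group means, r was 0.83 to 0.90 for these 5. Reln stood at 17.7 ± 4.73 CPM in WT and 9.95 ± 2.61 CPM in labelled KO, and Plxdc2 at 57.7 ± 10.1 and 43.6 ± 4.23 CPM.

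For Megf10 they were Loxhd1, known as a deafness gene of hair cells (r = 0.95), Scgn, the calcium-binding protein secretagogin (r = 0.93), Cap2, a regulator of actin (r = 0.92), 9330182L06Rik (r = 0.90) and the orphan receptor Gpr149 (r = 0.89). Within groups r was 0.63 to 0.92. Loxhd1 stood at 108.2 ± 18.7 CPM in WT and 63.4 ± 6.66 CPM in labelled KO, and Gpr149 at 26.8 ± 3.25 and 19.5 ± 2.49 CPM. Tenm1 and Megf10 correlated with each other at r = 0.83 and within groups at r = 0.50. Megf10 ran against Megf11 and Tenm3 within groups (r = -0.81 and -0.84), but over all 10 libraries r was -0.65 and 0.35. In labelled KO, Megf10 varied little more than by counting error (4.94% against 4.40%), so these within-group values rest mainly on the WT libraries. Of those, library 48 was lowest for Megf10 and highest for Megf11 and Tenm3. All points share the 10 libraries and their scaling, and the ordering by genotype enters every r over all 10.

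In iWAT no member differed between genotypes past the threshold. Of the 7 members tested, 0 passed and 0 had groups apart, where 0% of 16105 genes passed and 0.0745% had groups apart. Over all genes 89 had an unadjusted p under 0.05 with edgeR, and DESeq2 and limma voom also called 0 genes. The members' median log2 fold change was -0.031, beside 0 over all genes. Megf10 was too low to be tested, at 4 to 13 counts per library. With no filter its log2 fold change was 0.48 (SE 0.39, edgeR adjusted p = 0.9999), with the higher mean in labelled KO.

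Tenm1 in iWAT rested on few reads. It had 1.25, 1.35, 0.547, 0.735 and 0.925 CPM in WT libraries 33, 34, 48, 49 and 56 (9 to 21 counts) and 0.470, 0.922, 0.960, 1.43 and 0.953 CPM in libraries labelled KO 31, 32, 35, 50 and 66 (9 to 20 counts). The groups overlapped, and the log2 fold change was -0.031 (SE 0.34, edgeR adjusted p = 1). Among the mice of 21 weeks they did not overlap, at 1.25 and 1.35 CPM in 2 WT libraries and 0.470 to 0.960 CPM in 4 labelled KO libraries, with a log2 fold change of -0.66 (SE 0.39, edgeR adjusted p = 0.9988). Groups of 2 and 4 lie apart by chance far more often than groups of 5. The share over all genes was not computed for them, so nothing is read from this lack of overlap. The 1 younger library labelled KO had 1.43 CPM and the 3 younger WT libraries 0.547 to 0.925 CPM, the other way round. Counting error alone gives a coefficient of variation of 25.8% in WT at this level, so a difference as small as that in the pituitary was not detectable here. Tenm2 had 2.57 to 4.81 CPM in WT and 1.86 to 3.96 CPM in labelled KO (log2 fold change -0.27, SE 0.26, edgeR adjusted p = 1).

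Tenm3 and Tenm4 were well counted in iWAT but varied between libraries. Tenm3 had 18.9, 22.9, 28.7, 19.7 and 21.2 CPM in WT, whereas labelled KO ranged from 4.58 in library 50 to 39.6 in library 31, with 25.0, 23.6 and 15.3 CPM in libraries 32, 35 and 66. Both the lowest and the highest value were in labelled KO, where the coefficient of variation was 59.8% against 5.23% from counting error. Tenm4 had 193.9, 133.9, 45.3, 120.2 and 94.1 CPM in WT and 93.2, 123.9, 112.9, 166.9 and 130.9 CPM in labelled KO. WT held both extremes of Tenm4, with a coefficient of variation of 46.4% against 2.34% from counting error. The log2 fold changes were -0.040 (SE 0.42) and 0.094 (SE 0.32), both with edgeR adjusted p = 1.

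Tissue make-up varied across the same iWAT libraries. The 9 lymph node markers (B and T cell genes such as Cd3e) summed to 288 to 1195 CPM in WT and 18.1 to 1223 CPM in labelled KO, with 0 of 9 past the threshold and none at 0 in a whole group. Library 50, lowest for Tenm3, had the sum of 18.1 CPM, and library 31, highest for Tenm3, had 1223 CPM. The 8 adipocyte markers summed to 11720 to 25650 CPM in WT and 11220 to 37020 CPM in labelled KO, with 0 of 8 past the threshold and none at 0 in a whole iWAT group. The adipocyte sum was 11720 CPM in WT library 48, lowest for Tenm4, and 24640 CPM in WT library 33, highest for Tenm4. The part of tissue make-up in the levels of Tenm3 and Tenm4 was not tested.

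The other Megf genes overlapped between the iWAT groups. Megf11 had 22.5 to 26.7 CPM in WT and 18.7 to 25.5 CPM in labelled KO (log2 fold change -0.099, SE 0.094). Megf6 had 2.74 to 7.12 and 3.24 to 7.92 CPM (0.10, SE 0.30), and Megf9 had 16.0 to 31.1 and 17.3 to 30.0 CPM (0.10, SE 0.22). Each had an edgeR adjusted p of 1. A p past no threshold does not show that the groups are alike, and the SE gives the precision reached.

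**Figure D3:**
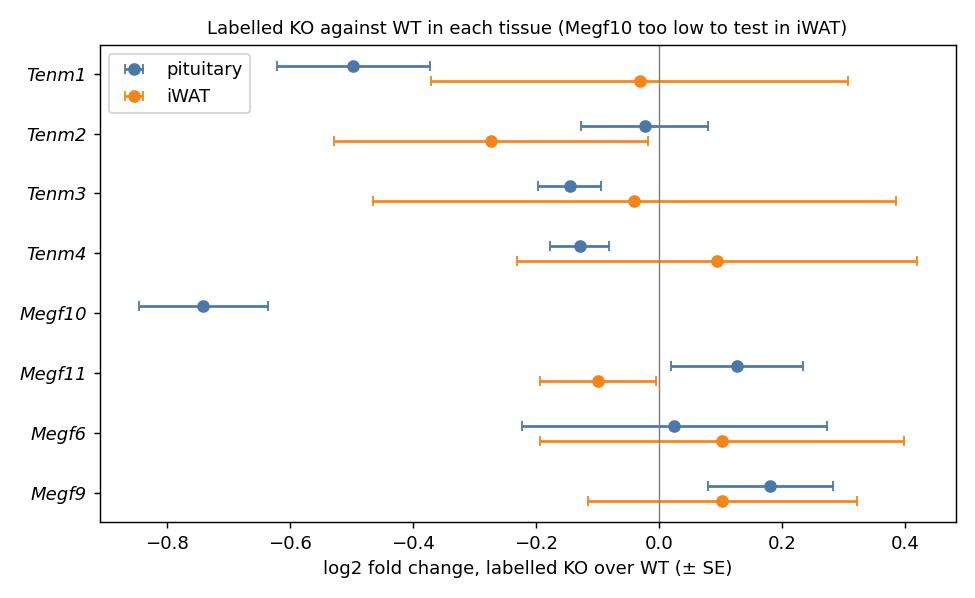
Log2 fold change of labelled KO over WT for each gene in the pituitary and in iWAT, with bars of 1 SE from edgeR fits of 5 against 5 libraries per tissue. The values of Tenm1 and Megf10 in the pituitary are farthest from 0, at -0.50 and -0.74, and the iWAT bars of the teneurins are wide.

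Between tissues the members differed far more. Of the 8 members, 7 passed the edgeR threshold in WT, with 6 lower and 1 higher in iWAT than in the pituitary, and the groups of these 7 did not overlap. Megf10 is 1 of the 6 lower ones. It was too low to be tested within iWAT and entered the tissue fits through its pituitary counts, so its direction was given beforehand. Over all 17023 genes 79.1% passed (40.2% lower and 38.9% higher in iWAT) and 69.4% had groups apart. The members' median log2 fold change was -1.82, beside -0.012 over all genes. The libraries labelled KO also gave 6 lower and 1 higher, where 75.1% of 16905 genes passed (37.3% lower and 37.8% higher) and 63.4% had groups apart, and the median was -1.98 beside 0.024. The share called in each fit is high for any gene set, so the count of 7 is near the background.

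All 4 teneurins were lower in iWAT. In WT, Tenm1 was 25.9-fold lower (log2 fold change -4.70, SE 0.23, edgeR adjusted p = 9.133e-09), Tenm3 10.1-fold (-3.34, SE 0.12, 5.441e-10) and Tenm2 5.62-fold (-2.49, SE 0.18, 1.328e-07). Tenm4 fell least across tissues, by 2.22-fold (log2 fold change -1.15, SE 0.29, edgeR adjusted p = 0.00354). In the libraries labelled KO the log2 fold changes were -4.19 (SE 0.24) for Tenm1, -3.20 (SE 0.43) for Tenm3, -2.70 (SE 0.20) for Tenm2 and -0.88 (SE 0.14) for Tenm4, with edgeR adjusted p between 5.981e-08 and 0.0001628.

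The unequal drop changed the make-up of the teneurin pool. Of the summed teneurin CPM per kb in WT pituitary, Tenm4 made up 48.9% ± 1.66, Tenm3 41.1% ± 2.81, Tenm1 5.98% ± 1.14 and Tenm2 4.01% ± 0.425. In WT iWAT, Tenm4 made up 78.5% ± 11.6, Tenm3 17.7% ± 10.7, Tenm2 2.87% ± 1.09 and Tenm1 0.866% ± 0.178. The Tenm4 share was 46.7 to 50.7% in WT pituitary and 58.7 to 88.8% in WT iWAT, so every iWAT library was above every pituitary one. Labelled KO gave Tenm4 shares of 48.7 to 50.9% and 69.1 to 95.3%, again apart. The Tenm1 share of the pool in the pituitary was 5.11 to 7.58% in WT and 3.62 to 5.31% in labelled KO, with ranges that overlapped.

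**Figure D4:**
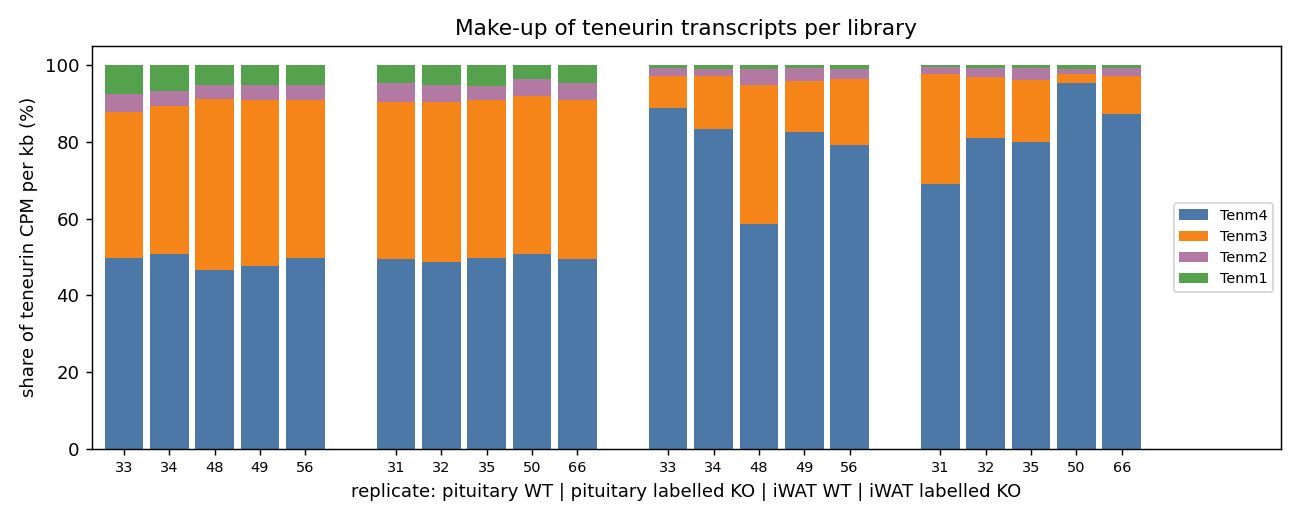
Share of each teneurin in the summed teneurin CPM per kb, in percent, for each of the 20 libraries (stacked bars to 100, library numbers below). Tenm4 and Tenm3 make up most of the pool in the pituitary, and Tenm4 holds 58.7% or more of it in every iWAT library.

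Among the Megf genes, Megf10 and Megf6 went opposite ways. Megf10 was 119.7-fold lower in WT iWAT (log2 fold change -6.90, SE 0.22) and 50.4-fold lower in labelled KO iWAT (-5.66, SE 0.23), on 4 to 13 counts per iWAT library. Because it entered these fits only through its pituitary counts, its direction was given beforehand and no p-value is printed. Both folds rest on the few iWAT counts, and the labelled KO one starts from the lower pituitary level described above. Megf6 was 4.20-fold higher in WT iWAT (log2 fold change 2.07, SE 0.28, edgeR adjusted p = 3.127e-05) and 4.55-fold higher in labelled KO iWAT (2.19, SE 0.28, 2.927e-05). Its level was 5.50, 7.12, 2.74, 6.55 and 4.16 CPM in WT iWAT, against 1.26, 1.10, 1.72, 1.10 and 0.995 CPM in WT pituitary, in the library order used above. The lowest iWAT library was thus above the highest pituitary library.

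Megf11 was 2.12-fold lower in WT iWAT (log2 fold change -1.08, SE 0.11, edgeR adjusted p = 2.24e-06) and 2.41-fold lower in labelled KO iWAT (-1.27, SE 0.11, 1.124e-06). Megf9 was the member with the smallest tissue difference, at -0.33 (SE 0.18, edgeR adjusted p = 0.1065) in WT and -0.37 (SE 0.17, edgeR adjusted p = 0.0664) in labelled KO. That call turns on single iWAT libraries. Without WT library 49 of iWAT the log2 fold change was -0.51 (edgeR adjusted p = 0.004093), and without labelled KO library 50 of iWAT it was -0.52 (edgeR adjusted p = 0.005835).

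**Figure D5:**
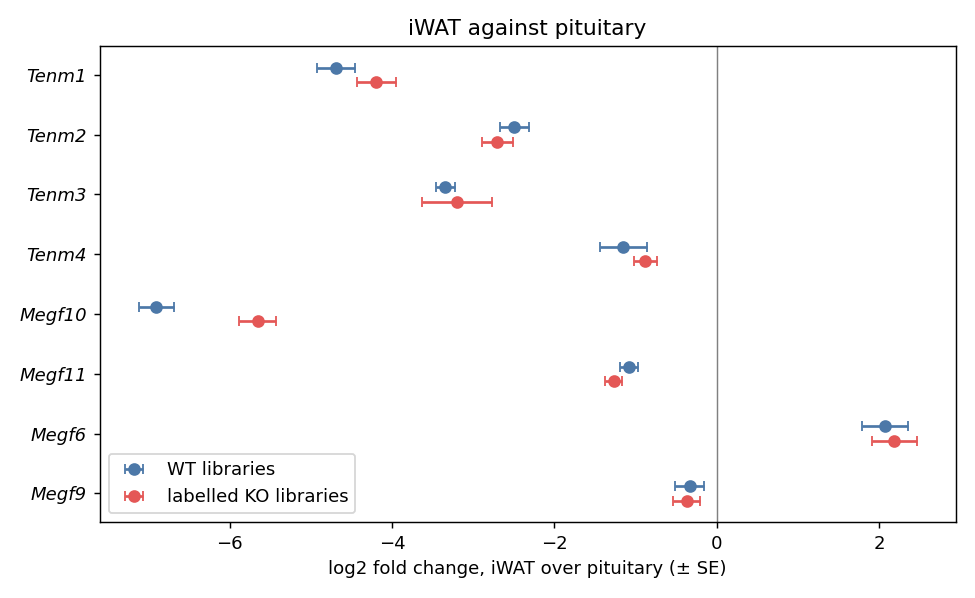
Log2 fold change of iWAT over pituitary for each gene, in the WT libraries and in the libraries labelled KO, with bars of 1 SE from edgeR fits of 5 against 5 libraries. Megf10 and Tenm1 are lowest, at -6.90 and -4.70 in WT, Megf6 is above 0 and Megf9 is nearest to 0.

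The iWAT library labelled KO number 32, which held the trace of pituitary hormone reads, had 0.922 CPM of both Megf10 and Tenm1. For Megf10 this was the highest iWAT value, and without that library its log2 fold change between tissues in labelled KO was -5.83. At the hormone share of 0.0897%, the pituitary library of the same number would give 0.0279 CPM of Megf10 and 0.01725 CPM of Tenm1. The part of pituitary RNA in these low iWAT levels was not otherwise tested.

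Teneurin partners and genes of related pathways and families, not all of them known partners of a member, were tested as 6 further lists of 79 genes. In the pituitary 72 were tested and 0 passed the threshold with edgeR, DESeq2 or limma voom, with 7 at an unadjusted p under 0.05 by edgeR and a smallest adjusted p of 0.1461, for the engulfment adaptor Elmo1. Their median log2 fold change was 0.027, beside 0.004 over all genes. In 1 of them, the kinase gene Syk that acts downstream of Draper-type receptors, the groups did not overlap, against 2.82% of all genes. It had 2.80 to 3.54 CPM in WT and 3.75 to 9.30 CPM in labelled KO (log2 fold change 0.65, SE 0.23, edgeR adjusted p = 0.2908). The highest value was in library 50, which also had the highest macrophage marker sum, and the part of macrophages in it was not tested. In iWAT 68 were tested and 0 passed, with 0 at an unadjusted p under 0.05 by edgeR and 0 called by DESeq2 or limma voom.

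The latrophilins, the receptors of teneurins, showed no pituitary difference past the threshold. Adgrl1 (listed as Lphn1) had a log2 fold change of -0.21 (SE 0.13, edgeR adjusted p = 0.6172), Adgrl2 (Lphn2) 0.084 (SE 0.071, 0.7316) and Adgrl3 (Lphn3) -0.001 (SE 0.089, 0.9989). In WT pituitary Adgrl1 stood at 19.6 ± 2.23 CPM per kb, near the levels of Tenm3 and Tenm4, with Adgrl2 at 8.18 ± 0.739 and Adgrl3 at 6.78 ± 0.557. Between tissues, 5 of the 10 teneurin partners were lower and 3 higher in WT iWAT (all genes: 40.2% lower, 38.9% higher). Adgrl1 (log2 fold change -1.72), Adgrl3 (-1.37), Adgrl2 (-0.46), Flrt1 (-3.31) and Flrt3 (-0.52) were the lower ones. The dystroglycan gene Dag1 (0.70) and Hint1 (0.39) were among the higher ones.

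The products of 11 netrin, Slit, Robo and Unc5 genes guide axons and in part bind FLRT proteins. Of these genes, 7 were lower and 4 higher in WT iWAT (all genes: 40.2% lower, 38.9% higher). Dcc, the netrin receptor, fell from 9.11 ± 1.17 to 0.0146 ± 0.0262 CPM per kb and Unc5a from 14.0 ± 0.599 to 2.58 ± 0.339, while Slit3 rose from 2.45 ± 0.346 to 33.8 ± 15.1. Of 7 genes of the corticotropin-releasing factor family, listed because the teneurin C terminus resembles those peptides, only the receptor gene Crhr1 was high enough to test. It stood at 8.77 ± 1.69 CPM per kb in WT pituitary and 0.0162 ± 0.0242 in WT iWAT.

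Most engulfment genes on the lists were higher in iWAT, unlike Megf10. Of 11 genes of the Draper pathway, 9 were higher and 2 lower in WT iWAT, and of 25 other engulfment genes, 19 were higher and 2 lower, where 38.9% of all genes were higher and 40.2% lower. The lower ones were the kinase gene Src (log2 fold change -0.99), the phosphatase gene Ptpn11 (-0.44), the engulfment receptor gene Adgrb1 (listed as Bai1, -4.88) and the calreticulin gene Calr (-0.69). The Megf10 relative Pear1 rose from 2.53 ± 0.213 to 14.6 ± 2.27 CPM per kb, the adaptor gene Gulp1 from 4.41 ± 0.547 to 11.4 ± 4.77 and the transporter gene Abca1 from 38.3 ± 6.17 to 112.2 ± 19.8. The phosphatidylserine-dependent receptor genes Mertk (log2 fold change 2.70) and Axl (2.88) and the bridging factor gene Mfge8 (2.20) were higher too. Macrophage markers moved with this difference, with a sum of 107.8 to 130.9 CPM in WT pituitary and 1009 to 2165 CPM in WT iWAT, 9 of 10 higher past the threshold and none at 0 in either group. The complement genes C1qa, C1qb and C1qc are on both lists, and the part of macrophages in the levels of the engulfment genes was not tested.

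Of 15 other large adhesion and EGF-repeat genes, 9 were higher and 4 lower in WT iWAT (all genes: 38.9% higher, 40.2% lower). The giant cadherin gene Fat1 fell from 46.0 ± 1.32 to 10.7 ± 2.43 CPM per kb, while Notch1 rose from 4.79 ± 0.660 to 27.1 ± 3.47. In the libraries labelled KO, 63 of the 73 list genes tested passed between tissues, where 75.1% of all genes did. In WT it was 65 of 73, where 79.1% of all genes did.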

How the data were processed

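Poly(A) RNA was read as single-end sequences of 100 nucleotides, about 46 M reads per sample per the labels' protocols. The authors deposited whole-number read counts per gene, not normalized. Per the submitters' processing notes STAR 2.4.0 and featureCounts 1.4.4 were used with mm10 and GRCm38, and per the file headers the counting was over exons, with no strand option. From these counts, each comparison was fitted in R 4.3.3 by edgeR 4.0.16 (TMM scaling after filterByExpr, robust quasi-likelihood test, Benjamini-Hochberg adjustment over all genes tested, threshold 0.05) on 5 against 5 libraries. Each SE was derived from the log2 fold change and its F statistic. CPM used TMM over all 20 libraries. DESeq2 1.42.0 and limma voom 3.58.1, other scalings and filters, age and left-out libraries were alternatives, and the fit was tested on simulated data. No 2 libraries of a group agreed within counting noise (lowest reduced chi-square 4.70), and all 20 were used. Members and lists were chosen with earlier results of these data known. Named were all 8 members, Klf14, list genes past the threshold within a tissue, the 4 most abundant genes of a list, the 5 genes most correlated with Tenm1 or Megf10, and markers that moved with a result. Some genes that this rule covers are not reported here. Latrophilins, FLRT genes, Syk, Elmo1, Pear1, Gulp1, Src, Ptpn11, Adgrb1, Mertk and Axl were added after their values were seen. Symbols matched for 193 of 193 list entries, 5 through older symbols. Counting coefficients of variation cover counting error only.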

Additional observations from a re-analysis of the deposited data

Results flagged for a closer look

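Of 32 groups of 5 libraries checked for a value far from the others (Dixon's test, gap over range above 0.71), 2 had one, and chance gives about 1 in 20 groups. Tenm1 in the pituitary library labelled KO number 50, from the mouse of 19 weeks, was 14.4 CPM, with the other 4 between 18.4 and 19.2 CPM (gap over range 0.838). That library also had the highest macrophage marker sum of the pituitary libraries, 293.5 CPM, and its part in the low value was not tested. Megf10 in the pituitary library labelled KO number 35 was 34.8 CPM, with the other 4 between 31.1 and 31.7 CPM (gap over range 0.844). This value is still under the lowest WT library, at 39.6 CPM.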

How the results depend on the processing

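The pituitary count of 90 genes was 288 with DESeq2, 44 with age as a covariate, 5 among the mice of 21 weeks, and, in fits chosen after seeing the data, 58 without labelled KO libraries 50 and 66 and 457 among those of 18 and 19 weeks. Leaving out 1 library gave 50 to 112, with 55 without labelled KO 32, 50 without WT 49 and 51 without WT 56. Tenm1 and Megf10 stayed below 0 there in all of these, at -0.71 to -0.40 and -0.91 to -0.64. Both were chosen from this contrast, with every library labelled KO below every WT library. A sign kept in subsets of these libraries was therefore close to given, and nothing is read from it. Tenm4 moved to -0.007 and Megf9 to 0.39 among mice of 18 and 19 weeks. In iWAT no member passed the threshold in any setting, and directions turned: Megf6 was -0.038 with the age covariate, and at 21 weeks Tenm3 was 0.30, Tenm4 -0.52, Megf11 0.037 and Megf6 -0.16, while Tenm1 kept its direction at -0.66. Leaving out 1 iWAT library gave -0.22 to 0.15 for Tenm1, -0.37 to 0.22 for Tenm3, -0.11 to 0.36 for Tenm4, -0.061 to 0.25 for Megf6 and -0.020 to 0.28 for Megf9. The cause was not tested. Between tissues 7 to 8 members passed in both genotypes, the eighth being Megf9, which in labelled KO also passed without the 20 most abundant genes (-0.39, adjusted p = 0.04685) and with limma voom (-0.40, adjusted p = 0.04509). With the mouse number as a replicate block 7 members passed in WT and 7 in labelled KO, and all genes called were 13197 and 12270. Equal numbers have the same genotype and age in both tissues, but the labels do not say that a number is a single animal. Same-numbered libraries correlated at -0.067 to 0.11, 1 of 10 pairs exceeded 0.1, and 4 of 10 matched their own number best. This cannot decide whether they come from the same animal, because both tissues of a mouse need not deviate together. No paired analysis was possible between genotypes because they share no number. Depth limits Megf10 and Tenm1 in iWAT and Megf6 in the pituitary.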
